A study of Sus scrofa with 9 samples.

Results

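Spheroids grown in vitro from porcine esophageal submucosal glands (ESMG) were compared with the gland tissue, to describe which transcripts culture gains and loses. The comparison holds 6 of the 9 arrays of the series, chosen by the ending of the sample title: 3 spheroid samples (pigs 1, 2 and 3) and 3 ESMG samples (pigs 37, 39 and 40). The other 3 arrays, of overlying squamous tissue from pigs 37, 39 and 40, entered the fit for its estimate of spread, and their levels are given only as a reference. All tissue came from control pig esophagus, and the labels call the 3 samples of a group biological replicates. The sources used here do not say whether pigs 1, 2 and 3 are the animals that gave the tissue, so the groups were treated as unpaired. Spheroids lay in Matrigel, a basement membrane gel, of the growth factor reduced grade, under Advanced DMEM/F12 with 10 mM HEPES, the supplements B27 and N2, and recombinant human epidermal growth factor (EGF) at 50 ng/ml. Tissue RNA and spheroid RNA were isolated with different column kits (RNeasy Universal Mini and RNeasy Micro), so kit and group cannot be told apart.

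The submucosal glands of the esophagus secrete mucus, bicarbonate and antimicrobial proteins through ducts that open onto the squamous surface. Their acini hold mucous and serous cells, myoepithelial cells lie around them, and the lobules sit in connective tissue with vessels, nerves, plasma cells and other leukocytes. Duct and acinar cells are thought to re-enter the cell cycle after injury, and epithelial spheroids grown from such glands are used as a culture model of that behaviour. Basement membrane gels with EGF are used to grow epithelial cells, whereas a piece of gland carries all of these cell types. The gel, EGF and the other conditions of culture came together, so their parts in a difference cannot be told apart.

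Each array gave log2 RMA levels for 12217 genes with a symbol of their own. A gene was called higher or lower in spheroids at an adjusted p under 0.05 (limma, Benjamini-Hochberg over all 12217 genes, 3 against 3 samples) together with a difference of at least 2-fold. Differences are on the log2 scale, spheroids minus ESMG, with the standard error of the fit, and values within a group follow pig order (1, 2, 3 for spheroids and 37, 39, 40 for ESMG). A gene under the lower quartile of all probe sets on all 3 arrays of a group (quartiles of 5.36 to 5.44 on spheroid arrays and 5.51 to 5.59 on ESMG arrays) is said to lie at the floor, where a difference is compressed and a level is not read as absence. The array of ESMG pig 40 stood apart from the other ESMG arrays: on the second principal component, which carried 16.7% of the variance, it scored 6.09 against 34.67 and 34.71, in the direction of the squamous arrays (-34.10 to -18.33). The first component (67.5%) set the spheroid arrays (63.35 to 64.06) apart from all 6 tissue arrays (-34.92 to -28.47). Counts over all genes and over the other-tissue genes are given without that array too, and so are some list counts. The ESMG arrays carried the gland products MUC19 (12.17 against 6.55 in squamous tissue) and KNG1 (10.75 against 5.74), and they also carried genes of upper squamous layers, with list means of 8.86 to 9.35 against 9.47 to 9.68 in squamous tissue.

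Of the 12217 genes, 976 were called higher in spheroids (7.99%) and 1089 lower (8.91%), 16.9% in all. Losses were the larger changes: at 8-fold or more there were 30 rises and 134 falls, at 16-fold or more 6 and 57, and at 32-fold or more 3 and 20. The lost genes included 198 (18.2%) that lay at the floor in spheroids, whereas 30 of the gained genes (3.07%) lay at the floor in ESMG, against 15.3% and 15.3% of all genes. Without ESMG pig 40 the counts were 1045 higher (8.55%) and 1198 lower (9.81%). Arrays of the groups did not overlap for 51.3% of all genes, so a gap between them alone sets a gene little apart. The split between rises and falls depended on the scaling: it was 1244 to 935 with array medians set equal (10.2% and 7.65% of all genes), 755 to 1245 after cyclic loess (6.18% and 10.2%), and 320 to 2388 with each array centred on its pan-epithelial genes (2.62% and 19.5%). The median difference of all genes was 0.09 in the deposited values, 0.20 with equal medians and -0.47 relative to pan-epithelial genes, so a difference near 0 is read against those values. List counts relative to pan-epithelial genes are likewise read against 2.62% of all genes higher and 19.5% lower.

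**Figure D1:**
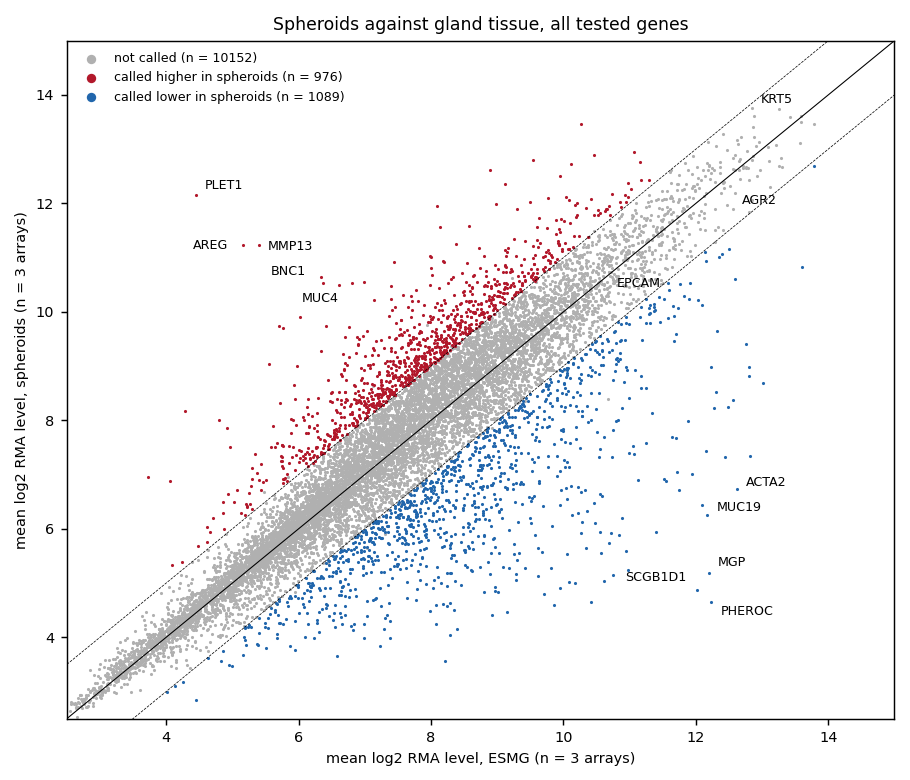
Mean log2 RMA level of each of 12217 genes in ESMG (horizontal axis) and spheroids (vertical axis), 3 arrays each, with red points called higher and blue points called lower in spheroids and dashed lines at a 2-fold difference. Of the called genes 134 blue and 30 red points lie 8-fold or more from the diagonal, with PLET1, AREG and MMP13 the farthest of the red.

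The largest gain was PLET1, a surface protein of epithelial progenitors in several organs. Its levels were 12.51, 11.78 and 12.19 in spheroids and 3.79, 4.53 and 5.02 in ESMG, where it lay at the floor. The groups lay far apart, and the difference was 7.71 ± 0.28, adjusted p = 1.4e-08, or 209-fold. AREG, the EGF receptor ligand amphiregulin, was at 11.54, 11.03 and 11.11 in spheroids and 4.94, 4.67 and 5.88 in ESMG, a 66.9-fold rise (6.06 ± 0.32, adjusted p = 1.3e-07). Collagenase MMP13 followed at 11.08, 11.49 and 11.15 against 4.998, 5.48 and 5.73, 57.2-fold higher (5.84 ± 0.25, adjusted p = 3.3e-08). None of these 3 transcripts was high in squamous tissue either, with means of 4.01, 5.66 and 4.63.

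The other 12 of the 15 largest gains ran from 11.3-fold to 19.8-fold. BNC1, the zinc finger protein basonuclin of basal keratinocytes, rose 19.8-fold, and the membrane mucins MUC4 and MUC13 rose 17.7-fold and 16.5-fold. MUC13 varied among the ESMG arrays, at 7.54, 4.60 and 4.94, against 9.61, 9.77 and 9.84 in spheroids. Pig 37 was the high array there, still below every spheroid sample, and without it the log2 difference was 4.97 in place of 4.04. The metalloproteinases MMP12, MMP3 and MMP7 rose 15.3-fold, 14.9-fold and 13.4-fold, and PLAU, the plasminogen activator urokinase, 14.5-fold. CDH6, a cadherin of developing epithelia, rose 14.8-fold, and PTGS2, the inducible prostaglandin synthase, 14.8-fold. The list closed with the immediate early response gene IER3 (13.2-fold), the lipase LIPG (11.8-fold) and CD70, the ligand of CD27 (11.3-fold).

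The largest loss was PHEROC, a subunit of pheromaxein, the steroid-binding protein of boar saliva. Its levels were 4.41, 5.20 and 4.32 in spheroids and 12.21, 12.69 and 11.80 in ESMG, so all 3 glands were near the top of the array's range and all 3 spheroid samples were at the floor (193-fold lower, -7.59 ± 0.74, adjusted p = 1.1e-05). SCGB1D1, a secretoglobin, fell 142-fold, from 12.78, 12.61 and 10.67 in ESMG to 4.51, 5.29 and 4.79 in spheroids (-7.15 ± 0.68, adjusted p = 9.1e-06). ESMG pig 40 was lower than the other glands for SCGB1D1, yet far above the spheroids, and without it the difference was -7.83. MGP, a calcification inhibitor of connective tissue and smooth muscle, fell 129-fold from 12.12, 12.28 and 12.19 to 5.25, 5.66 and 4.63 (-7.02 ± 0.24, adjusted p = 1.3e-08), with no overlap.

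The remaining 12 of the 15 largest losses came from gland cells, from other tissue cells or from neither kind of list. Gland products among them were the gel-forming mucin MUC19 (60.4-fold), lactoperoxidase LPO (50.6-fold) and the kinin precursor KNG1 (48.7-fold). Contractile and vessel-associated genes were the smooth muscle actins ACTA2 (59.1-fold) and ACTG2 (44.4-fold), PGM5 of muscle adhesion plaques (47.6-fold) and SPARCL1 (44.0-fold), and the matrix protein ABI3BP fell 53.4-fold. Genes of no list were the mitochondrial kinase PDK4 (54.6-fold), C2H5orf46 (41.0-fold), the protease inhibitor PI15 (38.4-fold) and the nucleoside carrier SLC28A3 (36.4-fold). In squamous tissue MGP (11.43), ACTA2 (12.71), ACTG2 (13.43), ABI3BP (10.96) and PDK4 (10.13) were also high, while KNG1 (5.74) and MUC19 (6.55) were low.

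**Figure D2:**
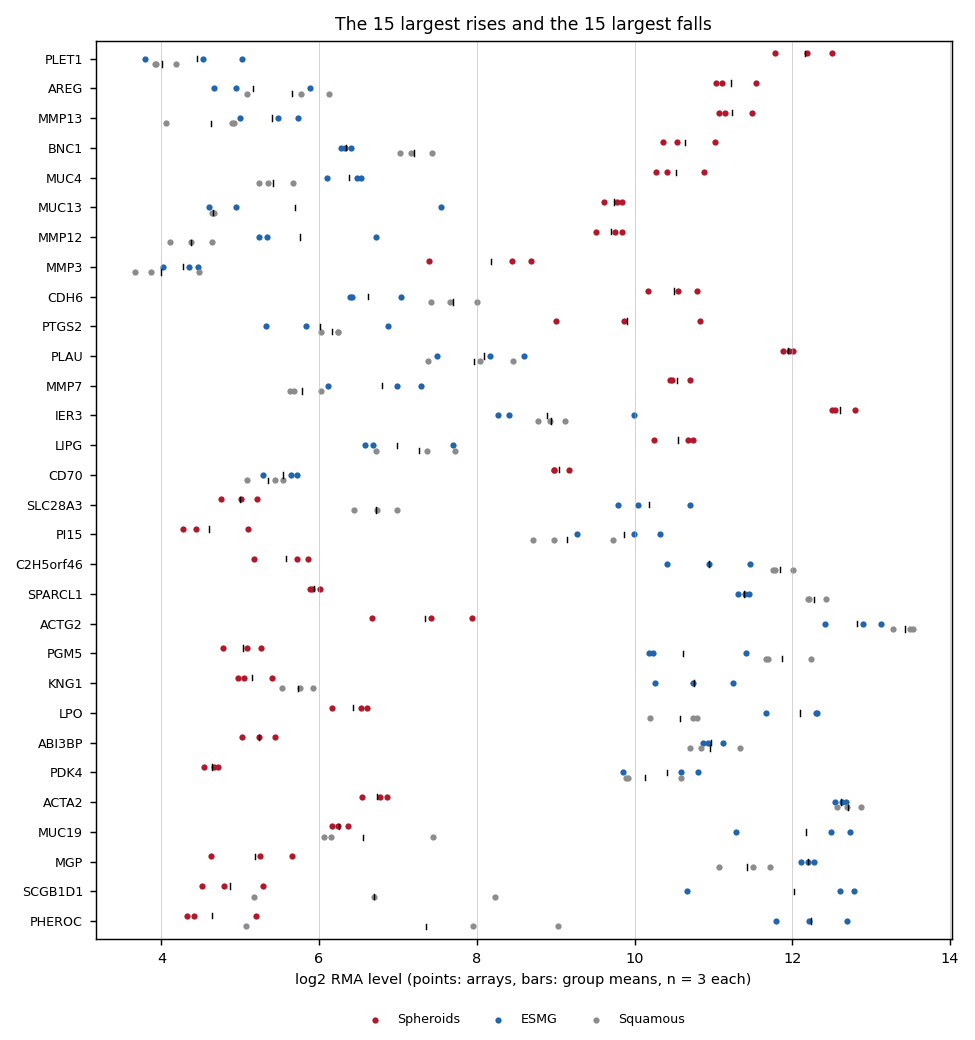
Log2 RMA level per array (points) and group mean (bars, n = 3) of the 15 largest rises and the 15 largest falls, in spheroids (red), ESMG (blue) and squamous tissue (grey). Spheroid and ESMG points do not overlap for any of the 30 genes, a condition of their choice; PLET1 runs from 4.45 in ESMG to 12.16 in spheroids, and PHEROC from 12.23 to 4.64.

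Genes were then sorted by the cells they mark: 9 lists of epithelial genes (242 genes measured) and 10 lists of other tissue cells (280 genes that no epithelial list holds). Of the epithelial genes 41 were called higher and 40 lower, with a median difference of 0.10, close to that of all genes. That even split held in the deposited scaling, and the counts were 27 higher and 61 lower relative to pan-epithelial genes (median -0.46, with all genes at -0.47). Of the other-tissue genes 5 were called higher and 122 lower, with a median of -0.84, against a background of 7.99% called higher and 8.91% lower. These lists also hold contractile genes of myoepithelial cells, which are gland epithelium, and genes such as XBP1 and SDC1 that epithelium can express. The split between epithelial and other-tissue genes is therefore not strict. At the floor in spheroids were 57 of the other-tissue genes, compared with 29 in ESMG. Without ESMG pig 40, 117 other-tissue genes were called lower, and relative to pan-epithelial genes 168 were. In whole-tissue RNA, fewer cells of a type and less RNA per cell cannot be told apart.

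**Figure D3:**
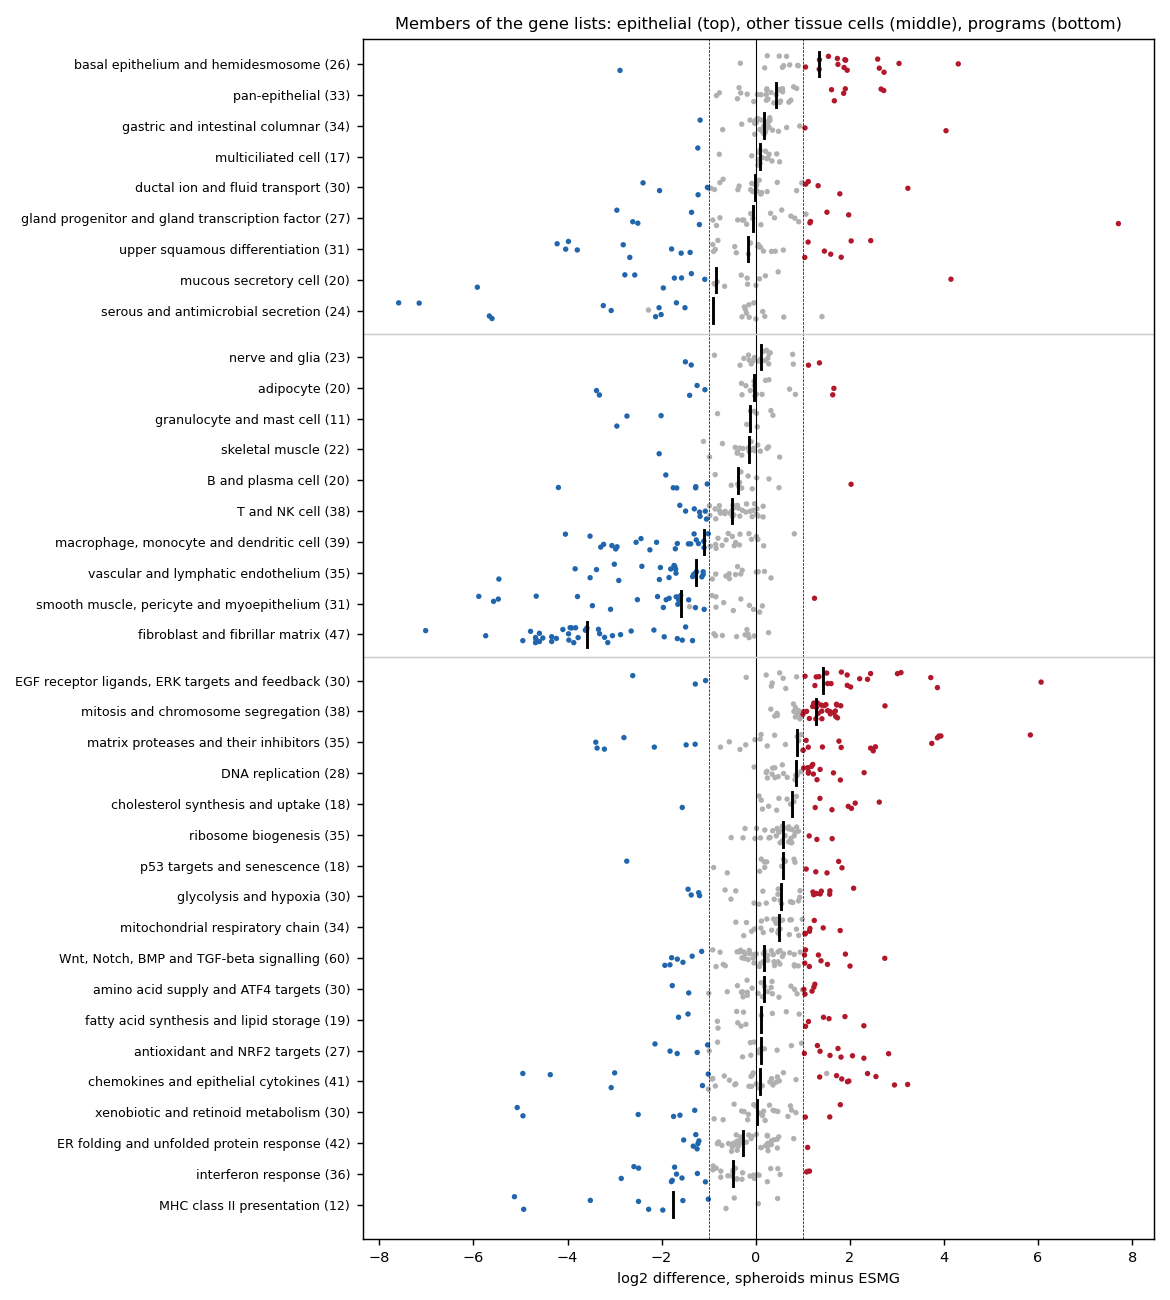
Log2 difference (spheroids minus ESMG) of each measured member of the 37 lists, with red points called higher, blue points called lower, grey points not called and black bars at the list median. The fibroblast list (median -3.59) lies farthest to the left, and the EGF receptor (1.43), basal epithelium (1.35) and mitosis (1.28) lists farthest to the right.

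Genes shared by most epithelial cells stayed at or above their gland level as a group. Of 33 pan-epithelial genes measured, 6 were called higher and 0 lower by limma (at an unadjusted p under 0.05, 17 higher and 3 lower), with a median of 0.43, which was -0.12 once arrays were centred on the mean of these genes. Their mean level was 9.68 to 9.70 over the 3 ESMG arrays and 10.17 to 10.35 over the 3 spheroid arrays, and 9.16 to 9.39 in squamous tissue. EPCAM, the epithelial adhesion molecule, was at 10.17, 10.15 and 10.75 in spheroids and 10.91, 11.002 and 10.11 in ESMG. The ranges overlapped, and the difference was not called (-0.32 ± 0.25, adjusted p = 0.33). The simple-epithelial keratins KRT8 (0.26 ± 0.25, adjusted p = 0.45) and KRT18 (0.24 ± 0.25, adjusted p = 0.50) also overlapped and were not called, and the sign of KRT18 turned without ESMG pig 40 (-0.074) and that of both relative to pan-epithelial genes (-0.29 and -0.32). Their partner KRT19 did rise, from 11.50, 10.98 and 10.73 in ESMG to 12.74, 12.83 and 13.26 in spheroids (3.65-fold, 1.87 ± 0.23, adjusted p = 6.4e-05), against a squamous mean of 8.42.

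The other called pan-epithelial genes included apical and junctional proteins, of which the list holds many. MUC1, a membrane mucin of apical surfaces, rose from 5.90, 5.84 and 6.05 to 8.65, 8.86 and 8.45 (6.59-fold, adjusted p = 2.8e-07). LSR, a protein of tricellular junctions, rose 6.34-fold (2.66 ± 0.15, adjusted p = 2.3e-07), and the membrane protease ST14 (matriptase) 3.74-fold (1.90 ± 0.13, adjusted p = 7.0e-07). CLDN4, a tight junction claudin, and SFN, an epithelial 14-3-3 protein, were the remaining pair, chosen for mention after their values were seen (1.67 and 1.61). All 6 stayed called relative to the pan-epithelial mean itself, where 2 other members were called lower. That mean is taken over the same list, these 6 included, so it only places members above or below their own list.

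**Figure D4:**
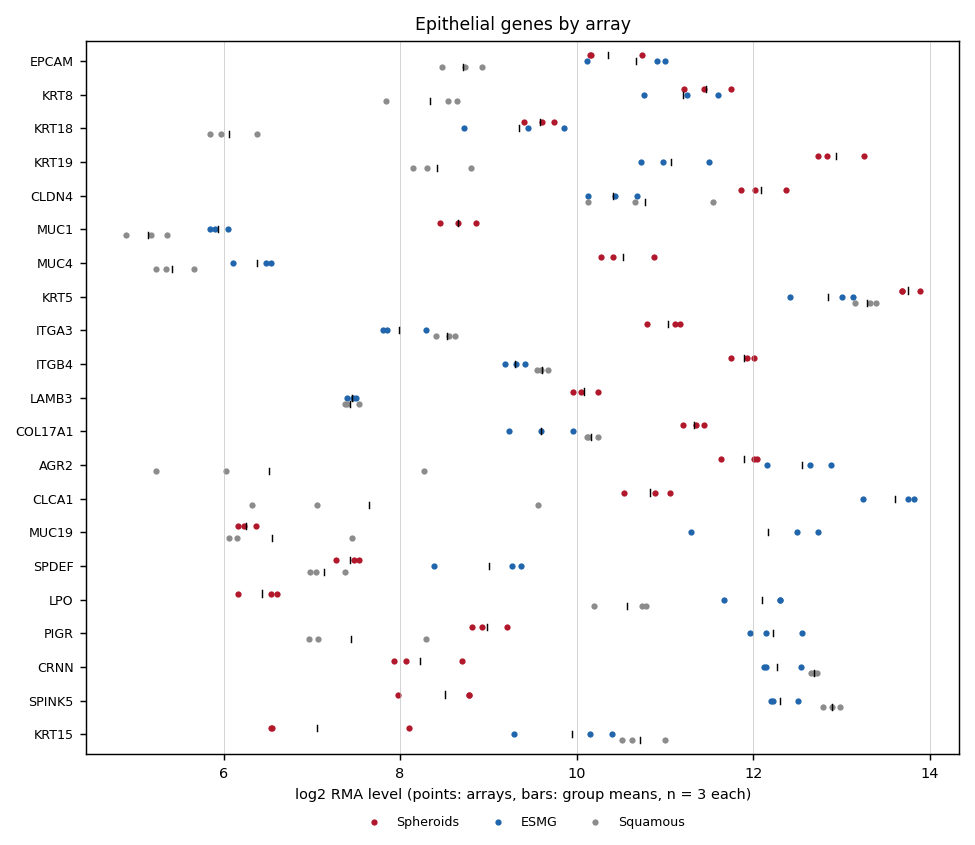
Log2 RMA level per array (points) and group mean (bars, n = 3) of epithelial genes in spheroids (red), ESMG (blue) and squamous tissue (grey). EPCAM, KRT8 and KRT18 overlap between spheroids and ESMG, KRT19, MUC1, MUC4 and the adhesion genes ITGA3, ITGB4, LAMB3 and COL17A1 lie higher in spheroids, and MUC19, SPDEF, LPO, PIGR, CRNN, SPINK5 and KRT15 lower.

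The secretory products of the gland were the epithelial genes that fell most. Of 20 mucous-cell genes 8 were called lower and 1 higher (10 lower without ESMG pig 40; median -0.84), and of 24 serous and antimicrobial genes 11 lower and 0 higher (median -0.90; 12 lower and 1 higher at an unadjusted p under 0.05). MUC19 was at 12.73, 12.49 and 11.29 in ESMG and 6.24, 6.36 and 6.17 in spheroids, within the squamous range of 7.45, 6.06 and 6.15. CLCA1, a secreted protein of mucous cells, fell 6.88-fold (-2.78 ± 0.61, adjusted p = 0.0030). It was still at 10.88, 11.06 and 10.54 in spheroids, against 13.76, 13.82 and 13.25 in ESMG. The squamous mean was 7.65, but those arrays ranged widely (9.56, 6.32 and 7.06), and their spread entered the standard error. GALNT7, a transferase that adds sugars to mucin chains, fell 5.94-fold (-2.57 ± 0.29, adjusted p = 3.0e-05).

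AGR2, the disulfide isomerase that folds mucins in the endoplasmic reticulum, was at 12.04, 12.01 and 11.64 in spheroids and 12.88, 12.64 and 12.16 in ESMG. Each spheroid sample was below each gland, but the difference was under 2-fold and was not called (-0.66 ± 0.57, adjusted p = 0.39). Both groups were far above the squamous mean of 6.51. The squamous arrays themselves ranged widely for AGR2 (8.27, 5.24 and 6.03), and the fit pools the spread of all 3 groups. Fitting the 6 arrays of the comparison alone keeps the same difference, under 2-fold. AGR2 could therefore not be called there whatever the spread. MUC4, which is anchored in the membrane and does not form gel, was the mucous-list gene that rose, from 6.11, 6.48 and 6.54 in ESMG to 10.41, 10.88 and 10.28 in spheroids (17.7-fold, 4.15 ± 0.19, adjusted p = 5.3e-08). ESMG pig 40 had the lowest mucous-list mean of the glands (8.45, against 8.91 and 9.07), still above the spheroids (7.88 to 7.93).

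Among serous products, LPO, which makes antimicrobial hypothiocyanite, was at 12.30, 12.31 and 11.67 in ESMG and 6.54, 6.61 and 6.16 in spheroids. The groups did not overlap, and LPO was lower in spheroids than in squamous tissue (10.79, 10.74 and 10.20) as well. KNG1 fell from 10.74, 11.25 and 10.26 to 4.97, 5.41 and 5.05, the latter at the floor. CCL28, a chemokine that draws antibody-secreting cells to mucosal glands, fell 8.41-fold (-3.07 ± 0.34, adjusted p = 2.6e-05). PIGR, the receptor that carries polymeric antibodies across the epithelium, fell 9.45-fold but remained at 8.82, 9.21 and 8.92 in spheroids; it was named after its values were seen. Of the 13 serous genes that were not called, 5 were picked for mention in the same way: LYZ (-2.28 ± 1.00, adjusted p = 0.091), and WFDC2 (-0.20), SLPI (-0.14), LCN2 (0.19) and CLU (-0.29), the last 4 near 0. Serous-list means were 8.78 to 9.21 over the 3 ESMG arrays and 7.12 to 7.43 over the 3 spheroid arrays, and 6 of the 24 genes lay at the floor in spheroids against 2 in ESMG.

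Ductal ion and fluid transport genes changed in both directions, 5 of 30 higher and 4 lower (median -0.01). The counts were 2 higher and 9 lower relative to pan-epithelial genes (median -0.56). GABRP, a chloride channel subunit of the GABA receptor family found in secretory epithelia, rose 9.41-fold (3.23 ± 0.43, adjusted p = 1.1e-04). It went from 9.06, 9.19 and 9.11 to 12.16, 12.22 and 12.69. The squamous arrays, whose spread entered its standard error, ranged widely (7.65, 5.30 and 6.18). The sodium pump subunit ATP1B3 rose 3.45-fold (1.79 ± 0.15, adjusted p = 4.7e-06). AQP5, the water channel of gland acini, fell 5.26-fold from 10.82, 10.51 and 9.78 to 7.97, 8.10 and 7.85 (-2.40 ± 0.23, adjusted p = 9.9e-06), close to its squamous mean of 8.07, and the potassium channel gene KCNMA1, which smooth muscle also expresses, fell 4.13-fold (-2.04 ± 0.23, adjusted p = 3.4e-05). The named losses were thus a single water channel gene and a single potassium channel gene, and the named gains a chloride channel subunit and a pump subunit.

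Gland progenitor and transcription factor genes were split in the deposited scaling, 5 of 27 higher and 5 lower, but were 2 higher and 8 lower relative to pan-epithelial genes (median -0.62). The 4 largest called changes are named, PLET1 and the falls that follow, and the other called rises and falls were smaller. KIT, a receptor tyrosine kinase of duct progenitors and of mast cells, fell 7.74-fold (-2.95 ± 0.26, adjusted p = 5.3e-06). LRIG1, an inhibitor of EGF receptor signalling, fell 6.12-fold (-2.61 ± 0.23, adjusted p = 5.2e-06). ELF5, a factor of secretory epithelia, fell 5.68-fold (-2.51 ± 0.19, adjusted p = 1.5e-06). The level of ELF5 was also high in squamous tissue (mean 10.55, against 10.09 in ESMG). SOX9, a transcription factor of duct and progenitor cells, was at 9.86, 10.65 and 9.77 in spheroids and 9.40, 9.64 and 8.99 in ESMG. Its arrays did not overlap, but the difference of 0.75 (adjusted p = 0.046) was under 2-fold.

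Basal-cell adhesion genes had the highest median of the 9 epithelial lists. Of 26 basal and hemidesmosome genes 15 were called higher and 1 lower (median 1.35, and 0.80 relative to pan-epithelial genes). List means were 9.18 to 9.38 over the 3 ESMG arrays and 10.50 to 10.64 over the 3 spheroid arrays, and 9.58 to 9.71 in squamous tissue, so the spheroids lay above both tissues. BNC1 was at 11.02, 10.36 and 10.53 in spheroids, 6.28, 6.33 and 6.40 in ESMG and 7.17, 7.02 and 7.43 in squamous tissue. ITGA3, the integrin chain that binds laminin, rose 8.26-fold from 7.86, 7.80 and 8.29 to 11.18, 10.80 and 11.12 (3.05 ± 0.17, adjusted p = 1.7e-07), and FERMT1, the keratinocyte integrin activator kindlin, 6.62-fold (2.73 ± 0.16, adjusted p = 2.1e-07). Laminin and hemidesmosome genes rose with them: LAMB3 by 2.63, ITGB4 by 2.59 and COL17A1 by 1.74 (adjusted p of 8.3e-08, 1.1e-07 and 1.5e-05), 3 genes singled out after their values were seen.

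The basal keratins did less or moved the other way. KRT5 was at 13.89, 13.69 and 13.69 in spheroids, 12.42, 13.005 and 13.12 in ESMG and 13.15, 13.33 and 13.39 in squamous tissue, among the brightest genes on all arrays. Its difference (0.90 ± 0.18, adjusted p = 0.0019) was under 2-fold, and passed it without ESMG pig 40 (1.04). KRT15, a keratin of resting basal cells, was the member that fell, from 9.29, 10.15 and 10.40 in ESMG to 6.55, 8.10 and 6.54 in spheroids (7.39-fold, -2.89 ± 0.39, adjusted p = 1.2e-04). Every spheroid sample was below every gland for KRT15, with spheroid pig 2 more than 1 log2 unit above the other spheroid samples.

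Upper squamous differentiation genes, carried by the ESMG arrays as well, changed in both directions. CRNN, cornulin of upper squamous layers, was at 12.15, 12.12 and 12.54 in ESMG and 12.68, 12.72 and 12.66 in squamous tissue, against 8.06, 7.93 and 8.70 in spheroids (16.4-fold lower than ESMG, -4.04 ± 0.20, adjusted p = 8.1e-08). The antimicrobial protein S100A7 and the protease inhibitors A2ML1 and SPINK5 fell 18.7-fold, 15.8-fold and 13.9-fold, from ESMG means of 11.13, 12.80 and 12.31. ESMG pig 40 carried the most squamous transcripts, with a list mean of 9.35 against 8.86 and 8.96 on the other glands. The part of that tissue in the falls was not tested; without pig 40 the falls of these 4 genes were -3.91, -3.97, -3.86 and -3.69. In the list as a whole 7 of 31 genes were called higher and 9 lower (median -0.16), against 4 higher and 14 lower relative to pan-epithelial genes (median -0.71). The rises were led by the lipoxygenase ALOX12 (5.44-fold, 2.44 ± 0.21, adjusted p = 4.7e-06) and dermokine DMKN (4.08-fold, 2.03 ± 0.19, adjusted p = 8.9e-06), neither of which was high in squamous tissue (6.37 and 6.86).

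Columnar and ciliated genes were seldom called. Of 34 gastric and intestinal columnar genes 10 lay at the floor in each group. Called were 2 higher and 1 lower (5.88% and 2.94%, against 7.99% and 8.91% of all genes), with a list median of 0.17. Besides MUC13, these were the peptide hormone SST (1.05 ± 0.20, adjusted p = 0.0012) and the gastric protein GKN2 (-1.18 ± 0.24, adjusted p = 0.0018). SST lost its call without ESMG pig 39 (1.00), without spheroid pig 2 (0.81) and relative to pan-epithelial genes, and GKN2 without ESMG pig 40 (-0.96). Of 17 multiciliated-cell genes 9 lay at the floor in ESMG and 5 in spheroids. Called were 0 higher and 1 lower (0% and 5.88%, against 7.99% and 8.91% of all genes). In so short a list these shares do not set it apart. The gene called was TPPP3 (-1.23 ± 0.32, adjusted p = 0.0084), a call lost without ESMG pig 37 (-0.93). At an unadjusted p under 0.05, 3 were higher and 2 lower.

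Among other tissue cells, connective tissue genes fell most. Of 47 fibroblast and matrix genes 37 were called lower and 0 higher (median -3.59; at an unadjusted p under 0.05, 40 and 0). The list's mean was 9.67 to 9.97 over the 3 ESMG arrays and 6.67 to 6.85 over the 3 spheroid arrays, and 9.52 to 9.94 in squamous tissue, so all 6 tissue arrays lay above the spheroids. COL1A2, a chain of fibrillar type I collagen, was at 11.50, 11.65 and 12.01 in ESMG and 7.28, 7.07 and 6.80 in spheroids (25.5-fold lower, -4.67 ± 0.18, adjusted p = 1.8e-08). CXCL12, a chemokine of stromal cells, fell 30.9-fold (-4.95 ± 0.23, adjusted p = 5.1e-08), and dermatopontin DPT, which binds collagen fibrils, 27.6-fold (-4.79 ± 0.23, adjusted p = 5.6e-08). The spheroid level of COL1A2 stayed above the floor, and 6 of the 47 genes were at it.

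Contractile genes fell likewise, 19 of 31 called lower (median -1.60). ACTA2, the actin of smooth muscle, pericytes and myoepithelial cells, was at 12.54, 12.68 and 12.63 in ESMG and 6.78, 6.86 and 6.55 in spheroids (-5.89 ± 0.14, adjusted p = 4.2e-10). ACTG2 was at 12.90, 12.42 and 13.13 and 7.43, 7.94 and 6.67, and calponin CNN1 fell 25.4-fold (-4.67 ± 0.25, adjusted p = 1.4e-07). These genes do not separate smooth muscle from myoepithelial cells, which are themselves gland epithelium. ESMG pig 40 had the highest contractile-list mean of the glands (9.07, against 8.36 and 8.73). NEXN, an actin-binding protein, was the only member called higher (1.25 ± 0.40, adjusted p = 0.025), a call lost relative to pan-epithelial genes and without ESMG pig 39, ESMG pig 40, spheroid pig 1 or spheroid pig 3 (1.17, 1.02, 1.06 and 1.23). Of 22 skeletal muscle genes 1 was called lower (4.55%, against 8.91% of all genes), the glycogen phosphorylase PYGM (-2.05 ± 0.43, adjusted p = 0.0023). Without ESMG pig 39 the count was 4 and the PYGM difference -2.64, and without spheroid pig 2 the count was 2. Relative to pan-epithelial genes the count was 4, on a scale where 19.5% of all genes were called lower.

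Endothelial genes fell in 22 of 35 cases, with 0 called higher (median -1.27; 28 lower and 0 higher at an unadjusted p under 0.05). PECAM1, the platelet and endothelial adhesion molecule, was at 10.42, 10.49 and 10.34 in ESMG and 8.37, 8.03 and 7.60 in spheroids (5.35-fold lower, -2.42 ± 0.19, adjusted p = 2.2e-06). Its spheroid level was well above the floor, while the endothelial receptor ADGRL4 fell 14.3-fold to the floor (-3.84 ± 0.26, adjusted p = 7.1e-07). SPARCL1, of vessel walls, fell 44.0-fold, the protease inhibitor A2M 11.5-fold (-3.52 ± 0.28, adjusted p = 2.7e-06), and the fatty acid receptor CD36, also of adipocytes and macrophages, 10.4-fold (-3.38 ± 0.39, adjusted p = 4.0e-05).

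Leukocyte genes fell too, the macrophage list most widely. Of 39 macrophage, monocyte and dendritic cell genes 21 were called lower (18 without ESMG pig 40) and 0 higher (median -1.10; at an unadjusted p under 0.05, 29 and 1). PTPRC, the CD45 antigen of all leukocytes, was at 9.65, 7.76 and 8.14 in ESMG and 5.76, 5.45 and 5.49 in spheroids (7.72-fold lower, -2.95 ± 0.39, adjusted p = 1.1e-04). ESMG pig 37 was the highest array for PTPRC. The mannose receptor MRC1 fell 16.5-fold to the floor (-4.04 ± 0.33, adjusted p = 2.9e-06), and the complement genes C1QB and C1QC of macrophages 11.5-fold and 9.40-fold. CD53, a tetraspanin of leukocytes, fell 9.81-fold (-3.29 ± 0.35, adjusted p = 2.2e-05).

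The antibody joining chain JCHAIN, made by plasma cells, was at 13.15, 12.33 and 12.21 in ESMG and 8.73, 8.34 and 8.03 in spheroids (18.3-fold lower, -4.19 ± 0.61, adjusted p = 2.1e-04). All 3 glands lay above all 3 spheroid samples. The squamous arrays were at 10.00, 7.09 and 7.17, with pig 37 above the spheroids and the other pair below them. Their wide spread entered the standard error of JCHAIN. Of 20 B and plasma cell genes 7 were called lower, including the adaptor BANK1 (-1.75 ± 0.33, adjusted p = 0.0012) and PRDM1 (-1.91 ± 0.18, adjusted p = 9.5e-06), a factor that epithelium also expresses. Another of the 7 was XBP1, a factor of secretory cells given below with the endoplasmic reticulum genes, so the list does not mark these leukocytes alone. SDC1 was called higher (4.07-fold, 2.03 ± 0.26, adjusted p = 9.2e-05); it marks plasma cells and is the main syndecan of epithelia. Of 11 granulocyte and mast cell genes 3 fell, KIT with the IgE receptor genes MS4A2 (6.67-fold, -2.74 ± 0.28, adjusted p = 1.8e-05) and FCER1A (4.03-fold, -2.01 ± 0.31, adjusted p = 2.8e-04), both to the floor.

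T and NK cell genes were low in the glands already, with list means of 5.77 to 6.62 over the 3 ESMG arrays and 5.48 to 5.61 over the 3 spheroid arrays. Of 38 genes 8 lay at the floor in ESMG and 14 in spheroids, and 7 were called lower, among them CD226 (-1.61 ± 0.31, adjusted p = 0.0014), IL2RG (-1.49 ± 0.40, adjusted p = 0.010), CD3D (-1.31 ± 0.32, adjusted p = 0.0057) and NKG7 (-1.19 ± 0.26, adjusted p = 0.0033). The calls rested on ESMG pig 37, whose list mean was 6.62 against 5.77 and 6.0: without it 1 member was called, and IL2RG, CD3D and NKG7 were at -0.88, -0.86 and -0.89. No T or NK cell gene was called higher by limma, and at an unadjusted p under 0.05 0 were higher and 19 lower. Relative to pan-epithelial genes, 23 were called lower.

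Of 23 nerve and glia genes 2 were called higher and 2 lower, and of 20 adipocyte genes 2 higher and 5 lower. The nerve-list shares, 8.70% and 8.70%, were near those of all genes (7.99% and 8.91%), so its members are given as single genes. Called lower were the sodium channel gene SCN7A (-1.50 ± 0.23, adjusted p = 3.3e-04) and the adhesion molecule NCAM1 (-1.37 ± 0.19, adjusted p = 1.5e-04). Called higher were the ubiquitin hydrolase UCHL1 (1.12 ± 0.18, adjusted p = 3.3e-04), a call lost without spheroid pig 2 (0.99), and the neurotrophin receptor NGFR (1.35 ± 0.17, adjusted p = 6.6e-05), which basal epithelium also expresses; neither was called relative to pan-epithelial genes, where 3 members were lower. Lipoprotein lipase LPL fell 10.0-fold to the floor (-3.32 ± 0.21, adjusted p = 4.0e-07), whereas the lipid-regulating receptor PPARG (3.16-fold, 1.66 ± 0.15, adjusted p = 5.8e-06) and the retinol carrier RBP4 (3.11-fold, 1.64 ± 0.14, adjusted p = 3.9e-06) rose.

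**Figure D5:**
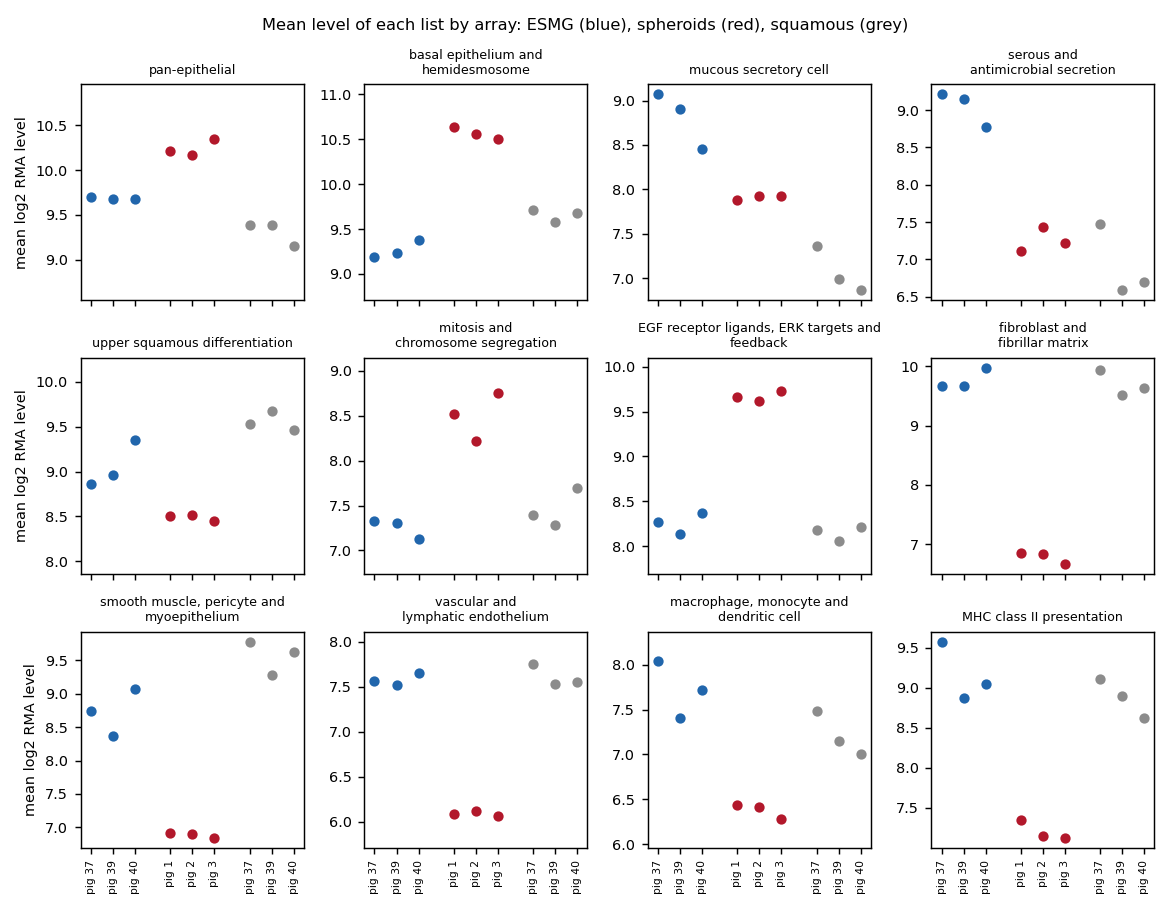
Mean log2 RMA level over the measured members of 12 lists on each array, for ESMG (blue), spheroids (red) and squamous tissue (grey). The fibroblast mean falls from 9.67 to 9.97 in ESMG to 6.67 to 6.85 in spheroids and the basal epithelium mean rises from 9.18 to 9.38 to 10.50 to 10.64, while the pan-epithelial mean is 9.68 to 9.70 and 10.17 to 10.35; vertical ranges differ between panels.

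Genes of the EGF receptor pathway rose with AREG. EGF receptor ligands are shed from the membrane, act through the receptor on the ERK kinase cascade, and induce both targets and feedback inhibitors of that cascade. Of 30 such genes 19 were called higher and 3 lower (median 1.43, and 0.87 relative to pan-epithelial genes). The list's mean was 8.13 to 8.37 over the 3 ESMG arrays and 9.62 to 9.73 over the 3 spheroid arrays. The ligand epiregulin, EREG, was at 10.59, 9.75 and 11.10 in spheroids and 7.75, 7.13 and 7.29 in ESMG (8.50-fold higher, 3.09 ± 0.38, adjusted p = 6.2e-05). IER3, an ERK target, was at 12.54, 12.80 and 12.50 and 8.27, 8.41 and 10.00 (3.72 ± 0.36, adjusted p = 9.8e-06), with ESMG pig 40 the highest gland. PLAU, also an ERK target, was at 11.88, 12.01 and 11.96 and 8.17, 7.49 and 8.60 (3.86 ± 0.29, adjusted p = 1.6e-06). The falls were LRIG1, named above, the feedback inhibitor SPRY1 (-1.28 ± 0.21, adjusted p = 4.1e-04), and LRIG3 (-1.07), which was named after its values were seen.

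Matrix proteases and their inhibitors changed in both directions, 14 of 35 higher and 7 lower, with 10 higher and 9 lower relative to pan-epithelial genes. The interstitial collagenase MMP13, the macrophage elastase MMP12 and the stromelysin MMP3 were among the rises, with MMP12 at 9.51, 9.75 and 9.84 in spheroids and 6.72, 5.23 and 5.34 in ESMG, and MMP3 at 8.69, 7.39 and 8.45 and 4.35, 4.02 and 4.47. MMP7, matrilysin of glandular epithelium, was at 10.71, 10.45 and 10.47 and 6.99, 6.12 and 7.29 (3.74 ± 0.25, adjusted p = 7.3e-07). Among the falls were MMP16, a membrane-bound metalloproteinase (10.6-fold, -3.40 ± 0.22, adjusted p = 5.3e-07), and ADAMTS9, a secreted one (10.4-fold, -3.37 ± 0.27, adjusted p = 2.4e-06).

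Genes of cell division rose and none fell. Of 38 mitosis genes 26 were called higher and 0 lower, and of 28 DNA replication genes 12 higher and 0 lower; at an unadjusted p under 0.05, 34 and 23 were higher and 0 and 0 lower. Without ESMG pig 40, 23 mitosis and 14 replication genes were called higher. Relative to pan-epithelial genes 10 mitosis and 3 replication genes were called higher, and the medians were 0.73 and 0.31 in place of 1.28 and 0.86. Mitosis-list means were 7.12 to 7.33 over the 3 ESMG arrays and 8.21 to 8.76 over the 3 spheroid arrays, with spheroid pig 3 highest and pig 2 lowest. UBE2C, the ubiquitin-conjugating enzyme of mitotic exit, was at 10.97, 11.19 and 10.64 in spheroids and 8.22, 7.94 and 8.40 in ESMG (6.71-fold, 2.75 ± 0.17, adjusted p = 3.6e-07). The mitotic kinase CDK1 rose 3.33-fold (1.74 ± 0.25, adjusted p = 1.9e-04), the securin PTTG1 3.50-fold (1.81 ± 0.14, adjusted p = 1.6e-06) and the mitotic transcription factor FOXM1 3.31-fold (1.73 ± 0.16, adjusted p = 8.5e-06). In DNA replication the origin-binding subunit ORC1 rose 4.94-fold (2.30 ± 0.15, adjusted p = 6.1e-07) and the S-phase factors E2F1 and E2F8 3.48-fold and 3.14-fold. UHRF1, which maintains DNA methylation at the fork, rose 2.58-fold (1.37 ± 0.14, adjusted p = 2.0e-05) but was not called relative to pan-epithelial genes.

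Sterol genes rose, 7 of 18 called higher and 1 lower (median 0.78, 0.22 relative to pan-epithelial genes). The sterol reductase TM7SF2 rose 6.17-fold (2.63 ± 0.24, adjusted p = 7.0e-06), the cholesterol carrier STARD4 4.33-fold (2.11 ± 0.18, adjusted p = 3.4e-06), mevalonate kinase MVK 4.09-fold (2.03 ± 0.21, adjusted p = 1.5e-05) and squalene epoxidase SQLE 3.91-fold (1.97 ± 0.16, adjusted p = 3.3e-06). MYLIP, a ligase that degrades the LDL receptor, was the member that fell (-1.56 ± 0.20, adjusted p = 7.2e-05). In fatty acid synthesis and storage 6 of 19 genes rose and 2 fell, with 3 higher and 4 lower relative to pan-epithelial genes. The NADPH source ME1 rose 4.92-fold (2.30 ± 0.17, adjusted p = 1.8e-06) and the desaturases FADS2 and FADS1 3.72-fold and 2.94-fold, while the fatty acid carrier FABP5 (-1.64 ± 0.23, adjusted p = 1.5e-04) and the acyl-CoA synthetase ACSL5 (-1.44 ± 0.31, adjusted p = 0.0027) fell.

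Glycolysis and hypoxia genes were called higher in 8 of 30 cases and lower in 4, and respiratory chain genes in 7 and 0 of 34. Their medians were 0.53 and 0.49, and -0.02 and -0.06 relative to pan-epithelial genes, so the shift of either list as a whole depended on the scaling. The glycolysis counts became 3 higher and 6 lower relative to pan-epithelial genes, and 1 respiratory chain gene was called higher. NDRG1, a hypoxia-induced gene, rose 4.23-fold (2.08 ± 0.19, adjusted p = 5.9e-06), and the glycolytic enzymes PKM and ENO1 2.98-fold and 2.97-fold; all 3 stayed called relative to pan-epithelial genes. The MYC antagonist MXI1 (-1.44 ± 0.16, adjusted p = 2.8e-05) and the oxidase ERO1A (-1.37 ± 0.17, adjusted p = 6.5e-05) fell. Of the complex I subunits NDUFB5 (3.47-fold, 1.79 ± 0.16, adjusted p = 5.4e-06), NDUFC2 (1.43 ± 0.17, adjusted p = 4.9e-05), NDUFA10 (1.24 ± 0.15, adjusted p = 5.7e-05) and NDUFV1 (1.15 ± 0.12, adjusted p = 2.4e-05), NDUFB5 kept its call on that scale and the other 3 lost it. Ribosome biogenesis showed the same dependence. Of its 35 genes 3 were called higher (8.57%, near the 7.99% of all genes): NPM3, NHP2 and GRWD1 (1.62, 1.30 and 1.14). The list's median of 0.57 became 0.02 relative to pan-epithelial genes, and on that scale NHP2 and GRWD1 were not called.

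Antigen presentation genes fell, 8 of 12 MHC class II genes called lower and 0 higher (median -1.76; 10 and 1 at an unadjusted p under 0.05). These molecules show peptides to T cells and are made by macrophages, dendritic cells and B cells, and by epithelia under interferon. SLA-DRA was at 12.77, 12.06 and 12.51 in ESMG and 8.16, 7.11 and 6.69 in spheroids (35.0-fold lower, -5.13 ± 0.32, adjusted p = 3.6e-07). SLA-DQA1 and SLA-DQB1 fell 30.5-fold and 11.4-fold, and SLA-DMB, which helps load the peptide, 5.63-fold. The macrophage list moved with them (means of 7.41 to 8.04 over the 3 ESMG arrays and 6.29 to 6.44 over the 3 spheroid arrays), as did the interferon list (7.45 to 8.07 over the 3 ESMG arrays and 6.95 to 7.34 over the 3 spheroid arrays), and the part of either in the fall was not tested. Probe sets of such closely related genes may share signal, which was not tested.

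Interferon response genes were called lower in 10 of 36 cases and higher in 2 (median -0.48), with 0 higher and 19 lower relative to pan-epithelial genes. The antiviral genes OASL (7.25-fold, -2.86 ± 0.22, adjusted p = 2.1e-06), IFI44 (5.62-fold, -2.49 ± 0.34, adjusted p = 1.2e-04) and OAS2 (3.46-fold, -1.79 ± 0.27, adjusted p = 2.8e-04) fell, and the chemokine CXCL9 fell 6.02-fold to the floor (-2.59 ± 0.56, adjusted p = 0.0028, and -1.86 without ESMG pig 37). TAPBP, which loads MHC class I, was called higher (1.14 ± 0.18, adjusted p = 3.7e-04), as was the galectin LGALS9 (1.08 ± 0.35, adjusted p = 0.028), and neither was relative to pan-epithelial genes. The LGALS9 call was lost without ESMG pig 39, ESMG pig 40, spheroid pig 2 or spheroid pig 3 (0.90, 0.92, 1.09 and 0.91).

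Chemokines and epithelial cytokines changed in both directions, 9 of 41 called higher and 6 lower. The balance depended on the setting, with 8 higher and 13 lower relative to pan-epithelial genes and 11 higher and 4 lower without ESMG pig 40. Relative to pan-epithelial genes, 2.62% of all genes were called higher and 19.5% lower. IL24, a cytokine of keratinocytes, rose 9.37-fold from the floor at 3.56, 3.60 and 4.04 to 6.72, 6.61 and 7.55 (3.23 ± 0.26, adjusted p = 2.5e-06). The stromal chemokines CXCL12 and CCL19 fell, CCL19 20.6-fold from 11.59, 9.45 and 10.39 to 6.17, 6.01 and 6.16 (-4.37 ± 0.39, adjusted p = 5.4e-06), together with CCL28 of the gland epithelium. The neutrophil chemokines CXCL8 and CXCL2 and the cytokine IL18 were higher by 2.55, 1.98 and 2.95 (adjusted p of 0.0017, 2.0e-04 and 2.6e-06), genes singled out after their values were seen.

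Of 42 endoplasmic reticulum genes of folding and secretion 6 were called lower and 1 higher (median -0.26), with 0 higher and 13 lower relative to pan-epithelial genes. The falls included XBP1, the transcription factor of secretory cells (-1.27 ± 0.22, adjusted p = 6.1e-04), the reductase DNAJC10 (-1.53 ± 0.35, adjusted p = 0.0043), the signal peptidase subunit SPCS2 (-1.33 ± 0.19, adjusted p = 2.2e-04) and the coat protein SEC24D (-1.25 ± 0.19, adjusted p = 2.8e-04). SEC61G, a translocon subunit, was called higher (1.10 ± 0.19, adjusted p = 5.6e-04), a call lost without ESMG pig 40 (0.98) and relative to pan-epithelial genes. ESMG pig 40 had the lowest list mean of the glands (10.00, against 10.43 and 10.69), below the spheroid range of 10.06 to 10.22, so the list means of the groups overlapped.

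Amino acid supply and ATF4 target genes were called higher in 5 of 30 cases, with PSPH of serine synthesis (1.26 ± 0.18, adjusted p = 1.8e-04) and the stress-induced pseudokinase TRIB3 (1.24 ± 0.20, adjusted p = 4.2e-04), and lower in 2, with the transaminase GPT2 (-1.77 ± 0.18, adjusted p = 1.7e-05) and the proline-pathway enzyme ALDH18A1 (-1.42 ± 0.25, adjusted p = 7.1e-04). Without ESMG pig 39 or spheroid pig 1 the count of rises was 3, and the counts were 0 higher and 4 lower relative to pan-epithelial genes. Antioxidant and NRF2 target genes were called higher in 9 of 27 cases and lower in 5, the latter 3 without ESMG pig 40, with 6 higher and 7 lower relative to pan-epithelial genes. The export pump ABCC3 rose 4.16-fold (2.06 ± 0.14, adjusted p = 7.5e-07). AKR1C1, an aldo-keto reductase, rose 7.08-fold from the floor (2.82 ± 0.26, adjusted p = 6.4e-06), but its call was lost when its 3 probe sets were averaged. The peroxidase GPX8 (-2.14 ± 0.35, adjusted p = 4.7e-04) and the glutathione transferase GSTA1 (-1.82 ± 0.24, adjusted p = 9.2e-05) fell.

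Of 30 xenobiotic and retinoid genes 3 rose and 6 fell, with 2 higher and 9 lower relative to pan-epithelial genes. The flavin monooxygenases FMO1 and FMO2 fell 33.6-fold and 30.9-fold, from 9.53, 10.92 and 9.80 and 10.92, 10.86 and 10.73 in ESMG to 5.06, 5.28 and 4.69 and 5.36, 5.78 and 6.52 in spheroids. Both were about as high in squamous tissue (9.98 and 10.88) as in the glands. Monoamine oxidase MAOA fell 5.65-fold (-2.50 ± 0.25, adjusted p = 1.5e-05), while CYP1A1, the target of the aryl hydrocarbon receptor, rose 3.48-fold (1.80 ± 0.27, adjusted p = 2.5e-04) and the retinoic acid receptor RARA 2.98-fold (1.57 ± 0.16, adjusted p = 1.5e-05).

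In the Wnt, Notch, BMP and TGF-beta pathways 10 of 60 genes were called higher and 7 lower (median 0.18). The balance turned with the scaling. The counts were 3 higher and 12 lower relative to pan-epithelial genes (median -0.38), and after cyclic loess 6 were higher. All genes turned likewise relative to pan-epithelial genes (2.62% higher and 19.5% lower, median -0.47), so the turn is not particular to these pathways. The activin and BMP antagonist follistatin, FST, rose 6.69-fold from 7.53, 7.44 and 7.76 to 10.47, 10.27 and 10.22 (2.74 ± 0.22, adjusted p = 2.4e-06). TCF7, a Wnt-pathway transcription factor, rose 4.01-fold (2.00 ± 0.19, adjusted p = 9.8e-06), and NRARP, a Notch feedback gene, 3.75-fold (1.91 ± 0.24, adjusted p = 7.5e-05). The Wnt antagonist DKK2 (-1.93 ± 0.24, adjusted p = 6.4e-05) and the Notch target HEY2 (-1.82 ± 0.18, adjusted p = 1.3e-05) fell.

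Of 18 p53 target and senescence genes 5 were called higher and 1 lower, with 2 higher and 3 lower relative to pan-epithelial genes. BAX, which triggers apoptosis at mitochondria, rose 3.56-fold (1.83 ± 0.15, adjusted p = 2.7e-06), the nuclease AEN 3.39-fold (1.76 ± 0.19, adjusted p = 1.9e-05) and the cell cycle inhibitor CDKN1A 2.86-fold (1.51 ± 0.19, adjusted p = 7.0e-05), the last not called relative to pan-epithelial genes (0.96). SESN1, a stress-response inhibitor of growth signalling, fell 6.69-fold from 9.66, 10.52 and 9.83 to 7.24, 7.27 and 7.27 (-2.74 ± 0.24, adjusted p = 4.5e-06).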

How the data were processed

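The 9 RNA samples were each read on an Affymetrix porcine gene array. Per the labels, the authors computed the log2 levels by RMA over all gene-level probe sets with Expression Console; the submitters' processing notes also list Transcriptome Analysis Console 3.0, without saying for what. RMA corrects background, equalises array distributions and summarises probes, so differences in total RNA are removed and low differences compressed. A scan batch or genome build was not found in the sources used here, and no coordinates or sequences are printed. Of 27558 probe sets 13157 had 1 symbol in the platform annotation; the brightest probe set stood for a gene (881 genes had several), which left 12217 genes. Probe-set medians ran from 6.84 to 7.04, and no further normalization was applied.

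Group means of all 9 arrays were fitted with limma 3.58.1 (lmFit, eBayes, 6 residual degrees of freedom, two-sided, Benjamini-Hochberg) in R 4.3.3, and the script was tested on simulated data. The median within-group SD was 0.19 in ESMG and 0.17 in spheroids, and the median standard error 0.17; 3 arrays a group limit the precision, and p-values measure only the spread between these samples. The members and the 37 gene lists (1643 symbols, 1069 measured) were chosen with earlier results of these data known, so counts are descriptions, set beside those of all genes. Named genes are the 15 largest non-overlapping rises and falls with a name other than a locus number, 14 key genes where measured, the 4 largest called members of each list (all where 1 or 2 were called) and up to 2 called members of a list's rarer direction, 167 in all; genes outside the rule are marked. The alternatives were other samples in the fit, scalings, filters, probe set rules, fold minima, moderation, array weights, a pig block, and leaving out each sample.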

Additional observations from a re-analysis of the deposited data

How the results depend on the processing

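Counts depended most on the fold minimum and on centring. With no fold minimum 2914 genes were called higher and 2155 lower, with at least 4-fold 132 and 364, and centred on pan-epithelial genes 320 and 2388. Other-tissue genes called lower were 66 at 4-fold or more. Pan-epithelial genes called lower, 0 of 33 in the deposited scaling, were 1 after cyclic loess, 2 when centred and 3 with no fold minimum. Leaving out 1 sample gave 960 to 1045 rises, 1040 to 1198 falls, 111 to 132 other-tissue falls and 0 pan-epithelial falls. The sign of KRT18 turned when centred (-0.32), with array weights (-0.10) and without ESMG pig 40 (-0.074; 0.49 was the highest value with 1 sample left out), and that of KRT8 when centred (-0.29); neither was called in any of these. No paired analysis was possible between the groups because spheroid and tissue pigs share no number; pig as a random replicate block (correlation -0.15, from the tissue pairs alone) gave 976 rises, 1088 falls, 122 other-tissue falls and 0 pan-epithelial falls, and changed no call of a named gene. Of the 167 named genes, centring ended 16 calls, cyclic loess 5, a 4-fold minimum 64, and leaving out ESMG pig 37, 39 or 40 ended 4, 3 and 4. Low signal limits the rest: a fall to the floor is a lower limit of the change.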

Other observations

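The lists held 187 of the 976 rises and 225 of the 1089 falls, against 1069 of all 12217 genes tested, which left 789 rises and 864 falls on no list; the genes named here were chosen after their values were seen. TXNIP, which restrains glucose uptake, was at 8.33, 8.51 and 7.89 in spheroids and 12.20, 12.53 and 12.72 in ESMG (19.0-fold lower, adjusted p = 1.7e-07 by limma), and its relative ARRDC4 fell 6.69-fold (adjusted p = 1.6e-06). The laminin chain LAMA2 fell 33.0-fold, the lysophospholipase ENPP2 30.1-fold and the proteoglycan SRGN of leukocytes 17.9-fold. The claudin CLDN17 fell 32.5-fold and the secretory-pathway lectin LMAN1L 32.6-fold.

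Gains outside the lists included the secreted phosphoprotein SPP1 (9.57-fold), the connexin GJB5 (8.52-fold), the purine receptor P2RX5 (8.11-fold) and the actin bundler FSCN1 (7.06-fold). Rises were also seen in the cell cycle genes MYBL2 5.71-fold and the phosphatase CDC25B 5.17-fold. SLN, a regulator of the muscle calcium pump, was 11.1-fold higher in spheroids (10.50, 11.01 and 11.24 against 8.88, 6.96 and 6.49).

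Some genes, listed or not, varied widely within a group. Among spheroids the choline transporter SLC5A7 was at 6.53, 9.43 and 6.66, with pig 2 high, against 5.80, 5.49 and 5.96 in ESMG. Among the glands OLFM3 was at 9.47, 9.47 and 5.80, with pig 40 low, and the chemokine CCL20 at 5.45, 7.05 and 8.88, with pig 40 the closest to the spheroids (8.36, 9.05 and 8.49). The immediate early gene FOS was at 8.001, 7.99 and 10.35 and the cytokine IL6 at 5.48, 5.75 and 7.93, both highest on pig 40, and the muscle light chain MYL1 at 8.47, 5.37 and 5.81, highest on pig 37.

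The 14401 probe sets without a symbol of their own held 743 called higher (5.16%) and 1186 called lower (8.24%) when all probe sets were tested together.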
